A study of Mus musculus with 120 samples.

Results

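Constant light (LD24/0) was compared with a cycle of 12 h light and 12 h dark (LD12/12) in the cecal contents of mice that drank antibiotics. The samples were chosen by their labels alone, 6 libraries of LD24/0 and 6 of LD12/12, which makes 12 of the 120 libraries of the series. The wider study sequenced 16S rRNA gene amplicons, copies of the gene by which bacteria are identified, from colon and cecum under 5 light cycles with and without antibiotics. LD24/0 mice had the lights on for 24 h a day, and LD12/12 mice for 12 h. Both groups were C57BL/6N mice, an inbred laboratory strain, 10 weeks old at the start. Both were acclimatised for 7 days, then kept 1 to a cage for 42 days under their light cycle. Both received a broad-spectrum antibiotic cocktail in sterilized drinking water and the same irradiated feed. The sources used here name neither its agents nor their doses. The design names 24 mice per group. The labels' extraction text speaks of rumen digesta, whereas the sample field of these mouse libraries reads cecal content.

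The cecum is the fermentation chamber of the mouse gut, where strict anaerobes such as Muribaculaceae, Lachnospiraceae and Oscillospiraceae break down fibre and host glycans into short-chain fatty acids. Broad-spectrum antibiotics deplete many of these anaerobes and leave room for tolerant Bacteroidales, for facultative anaerobes of the Enterobacterales and for enterococci. Food intake, bile flow and mucosal immunity follow the day and night cycle in mice, and gut bacteria oscillate with them. In these libraries every value is a share of counts, so a higher share of one taxon lowers the shares of others, and more cells of a taxon cannot be told apart from fewer of the rest.

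Total counts were 59341 to 69520 in LD24/0 and 62916 to 69213 in LD12/12. The 12 libraries held 941 sequence variants in 232 genera, and no pair among 66 was a copy of another. The antibiotics label fits its marker genera. Parabacteroides took 6.75% to 79.2% and Klebsiella 9.80% to 18.9% of counts in the 12 libraries, against at most 9.06% and 0.0571% in the 31 cecal libraries on chow. Unclassified Muribaculaceae took 0.0739% to 0.305%, against 1.27% to 33.2% on chow. Libraries also stood apart in another way. Genera of the mouth and of fermented food made up 1.74%, 1.57%, 1.36%, 1.99%, 0.0101% and 0.00479% of counts in LD24/0 replicates 1 to 6, and 1.60% to 2.12% in LD12/12. LD24/0 replicates 5 and 6 thus held almost none, at 7 and 3 counts, and 31 genera counted in each of the 10 other libraries were counted in neither of them. By shared variants of these genera, LD24/0 replicates 1 to 4 grouped with 4 libraries of LD16/8 (16 h light and 8 h dark), and all 6 LD12/12 libraries with 2 others of LD16/8. These sets are clusters of the counts and are not given by labels. Of such variants in either library of a pair, 0.400 to 0.689 were shared within a set. Between LD24/0 and LD12/12 libraries 0.210 to 0.417 were shared, so the ranges touch. No such set of libraries held both LD24/0 and LD12/12, so library set and light cycle cannot be told apart for taxa at these low levels.

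Parabacteroides, a bile-tolerant genus of the Bacteroidales that lives on plant and host glycans, led 10 of the 12 libraries. It took 69.1%, 70.9%, 73.0%, 6.75%, 79.2% and 13.5% of counts in LD24/0 replicates 1 to 6. The LD12/12 shares were 73.8%, 75.7%, 72.8%, 66.0%, 70.6% and 69.3%. The LD12/12 libraries lay within 10 percentage points of each other, while LD24/0 split into 4 libraries at or near that range and replicates 4 and 6 far below it. The means were 52.1% ± 32.8 in LD24/0 and 71.3% ± 3.48 in LD12/12 (SD, n = 6 each). The log2 fold change of -0.45 ± 0.44 (SE) did not pass the test (edgeR adjusted p = 0.616).

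Bacteroides, the related genus of broad polysaccharide degraders, led those 2 libraries in its stead. Its shares were 0.265%, 0.203%, 0.200%, 68.2%, 0.0751% and 64.2% in LD24/0 replicates 1 to 6. In LD12/12 they were 0.133%, 0.143%, 0.0551%, 0.147%, 0.151% and 0.138%. LD24/0 replicates 4 and 6 stood apart from all other libraries, replicates 1 to 3 were slightly above the LD12/12 range and replicate 5 was within it. Bacteroides averaged 22.2% ± 34.1 in LD24/0 and 0.128% ± 0.0361 in LD12/12 (SD, n = 6 each), with medians of 0.234% and 0.140%. The log2 fold change of 7.44 ± 1.79 passed the test, so the genus rose in LD24/0 (edgeR adjusted p = 0.0101, ± SE), and 5 of 6 LD24/0 libraries lay above the highest LD12/12 library. The size of that fold change is set by replicates 4 and 6, as the medians show. With limma on centred log-ratios, which compare each genus with the geometric mean of its library, the log2 difference was 3.98 and missed the threshold (adjusted p = 0.0521).

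Together, Parabacteroides and Bacteroides took a similar part of every library. Their summed shares were 69.3%, 71.1%, 73.2%, 74.9%, 79.3% and 77.7% in LD24/0 replicates 1 to 6, and 73.9%, 75.8%, 72.8%, 66.1%, 70.7% and 69.4% in LD12/12. The groups overlapped, and replicates 4 and 6 of LD24/0 no longer stood apart. The mean was 74.3% ± 3.82 in LD24/0 and 71.5% ± 3.48 in LD12/12 (SD, n = 6 each). The difference of 2.80 percentage points did not exceed the spread between libraries (exact two-sided permutation p = 0.221, 0.276 after adjustment over the 5 whole-community and summed-share tests).

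**Figure D1:**
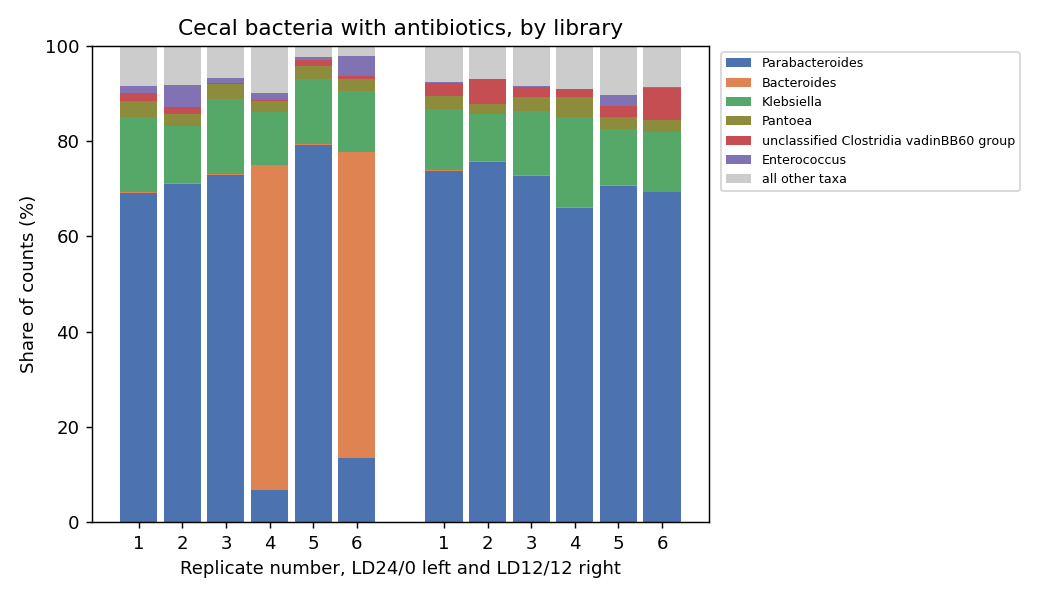
Share of counts (percent, y axis) of the 6 leading taxa and all others in each library, with LD24/0 replicates 1 to 6 on the left and LD12/12 replicates 1 to 6 on the right. Bacteroides fills 68.2% and 64.2% of LD24/0 replicates 4 and 6, while Parabacteroides and Bacteroides together fill 66.1% to 79.3% of all 12 libraries.

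The bloom was made by 1 sequence variant. The leading Bacteroides variant, not named to species in the authors' taxonomy, took 67.5% and 63.96% of counts in LD24/0 replicates 4 and 6. The same variant took 0.0751% to 0.221% in the other LD24/0 libraries and 0.0457% to 0.125% in LD12/12. This was a rise of 7.72 ± 1.73 log2 units (± SE, edgeR adjusted p = 0.00891 over all variants). The other Bacteroides variants each stayed at or below 0.152% in every library. Across the series, this variant exceeded 1% of counts in 4 of 30 cecal and 8 of 29 colonic libraries with antibiotics, and in 0 of 31 cecal and 0 of 30 colonic libraries on chow. Of the 4 cecal libraries, 2 were the LD24/0 replicates and the other 2 were of LD8/16 (8 h light and 16 h dark).

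The make-up of Parabacteroides in variants was similar where the genus was rare and where it led. Its 28 variants were led by 5 that carried most of its counts. The leading variant took 30.6% to 34.6% of Parabacteroides counts in LD24/0 and 32.1% to 36.0% in LD12/12. The second took 21.7% to 23.4% in LD24/0 and 22.1% to 24.6% in LD12/12. LD24/0 replicates 4 and 6, with 4004 and 8450 Parabacteroides counts, gave 30.6% and 32.6% for the leading variant and 21.7% and 22.9% for the next. A pair of variants varied among the LD12/12 libraries. Variant 5 was at or near 0 in LD12/12 replicates 1 and 3, where variant 3 took up to 26.7%. In LD24/0 variant 5 took 6.74% to 14.0% and variant 3 took 12.2% to 15.6% in all 6 libraries. The sum of variants 3 and 5 was 22.2% to 29.6% in LD24/0 and 21.6% to 27.3% in LD12/12. Neither of the 2 leading variants passed, at -0.49 ± 0.42 and -0.46 ± 0.42 log2 units (± SE, edgeR adjusted p = 0.574 and 0.650). Near-identical copies of the 16S gene within 1 genome can give several variants, and whether these variants are separate strains was not tested.

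**Figure D2:**
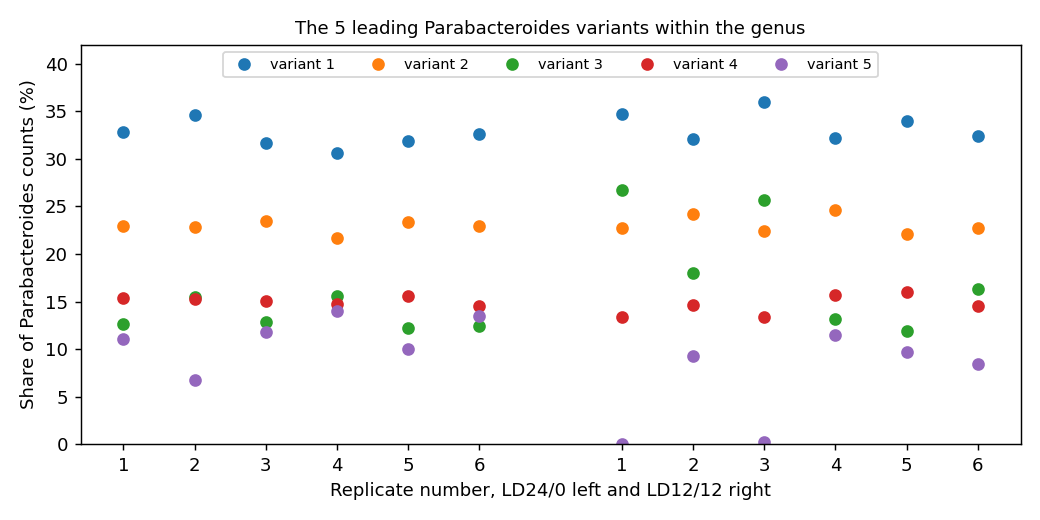
Share of Parabacteroides counts (percent, y axis) taken by its 5 most abundant variants in each library, with LD24/0 replicates 1 to 6 on the left and LD12/12 replicates 1 to 6 on the right. Variant 1 stays between 30.6% and 36.0% in all 12 libraries, and variant 5 is at or near 0 in LD12/12 replicates 1 and 3 alone.

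The Enterobacterales, the order of facultative anaerobes that holds Klebsiella and Escherichia, formed the second part of the community and showed no detectable difference between the light cycles. Klebsiella, whose gut strains often tolerate antibiotics, took 15.7%, 12.0%, 15.6%, 11.1%, 13.7% and 12.8% of counts in LD24/0, and 12.8%, 9.80%, 13.5%, 18.9%, 11.8% and 12.5% in LD12/12. The groups overlapped almost fully, with means of 13.5% ± 1.89 in LD24/0 and 13.2% ± 3.05 in LD12/12 (SD, n = 6 each). Its log2 fold change was 0.03 ± 0.39 (SE, edgeR adjusted p = 0.978). Pantoea, a plant-associated relative, had means of 2.81% ± 0.469 in LD24/0 and 2.90% ± 0.713 in LD12/12, and Enterobacter 0.543% and 0.528%. Their log2 fold changes were -0.04 ± 0.44 and 0.04 ± 0.47, with standard errors that leave changes of moderate size undetected. The leading Pantoea variant followed the leading Klebsiella variant across libraries. The 2 were lowest in LD12/12 replicate 2, at 2.11% and 9.66%, and highest in LD12/12 replicate 4, at 4.06% and 18.6%. The Pantoea result is thus not independent of that of Klebsiella, and whether both names stand for 1 organism was not tested. The whole order took 17.4% ± 2.47 in LD24/0 and 17.3% ± 3.82 in LD12/12, a difference of 0.114 percentage points (exact two-sided permutation p = 0.963, also after adjustment).

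Escherichia-Shigella, a minor member of the order chosen here after its values were seen, had another pattern. It took 0.666%, 0.345%, 0.268%, 0.418%, 0.0621% and 0.0622% of counts in LD24/0. Its LD12/12 shares were 0.0116%, 0.0133%, 0.0205%, 0.0168%, 0.262% and 0.0290%. All LD24/0 libraries exceeded all LD12/12 libraries except replicate 5 of LD12/12. The log2 fold change of 2.36 ± 0.87 (SE) did not pass (edgeR adjusted p = 0.0844). Of the 6 Enterobacterales genera tested, 0 passed by edgeR, 1 had an unadjusted p under 0.05, 0 passed by DESeq2 and 1 by limma, and their median log2 fold change was -0.01, beside -0.40 over all 158 genera tested.

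Enterococcus, a genus of hardy lactic acid cocci with intrinsic resistance to several antibiotics, took 1.46%, 4.55%, 0.922%, 1.35%, 0.489% and 4.00% of counts in LD24/0. In LD12/12 it took 0.0997%, 0.0487%, 0.120%, 0.0902%, 2.15% and 0.146%. Every LD24/0 library lay above 5 of the 6 LD12/12 libraries, and LD12/12 replicate 5 reached into the LD24/0 range. The means were 2.13% ± 1.71 in LD24/0 and 0.442% ± 0.837 in LD12/12 (SD, n = 6 each). The log2 fold change of 2.27 ± 0.84 (SE) did not pass the threshold (edgeR adjusted p = 0.0844). Without LD12/12 replicate 5 it was 4.40 and passed (edgeR adjusted p = 2.69e-04), so that library decides the call. The count test of DESeq2 also passed it (adjusted p = 0.0290), as did limma on centred log-ratios (adjusted p = 6.08e-04). A pair of variants named Enterococcus gallinarum, a motile gut species, carried nearly all of these counts. The leading one took 0.387% to 3.66% in LD24/0 and 0.0487% to 1.59% in LD12/12. The second was counted in all 6 LD24/0 libraries, at 0.103% to 0.869%, and in LD12/12 only in replicate 5, at 0.394%. Replicate 5 alone also held a variant named Enterococcus faecalis, at 0.170%. Anaeroplasma, a wall-less fermenter singled out after its values were seen, took 2.08% in LD12/12 replicate 5 and at most 0.440% in any other library of either group.

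**Figure D3:**
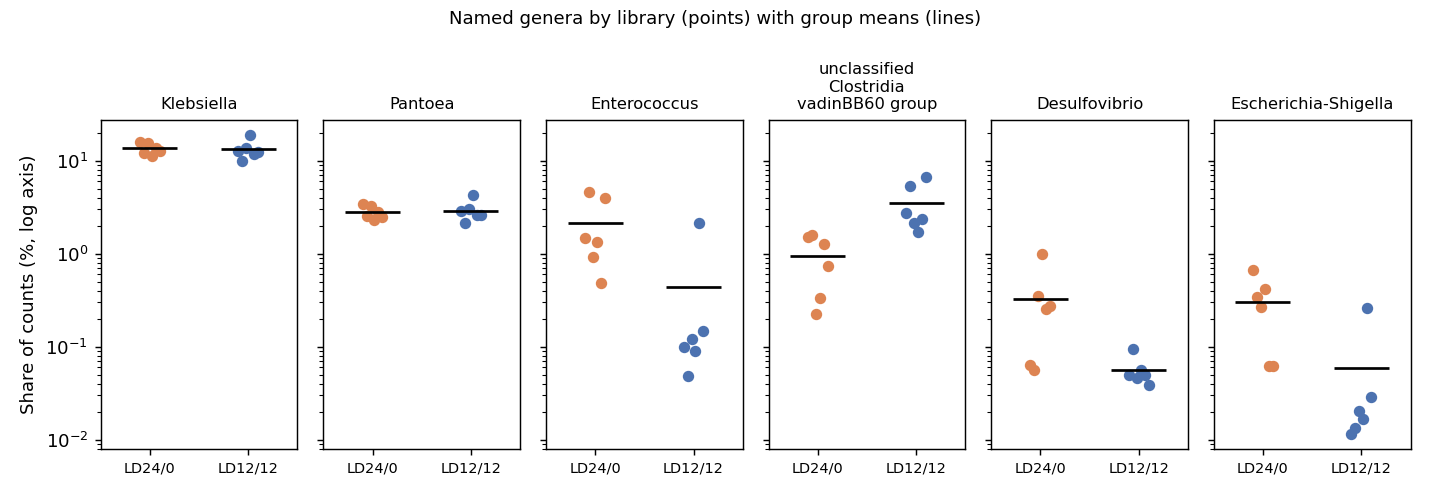
Share of counts (percent, log axis) of 6 taxa in each library, with LD24/0 points left of LD12/12 points in each panel and lines at the group means. Klebsiella and Pantoea overlap between groups, the vadinBB60 group is lower in every LD24/0 library than in any LD12/12 library, and the LD12/12 point of Enterococcus at 2.15% is replicate 5.

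The uncultured Clostridia vadinBB60 group, an order-level lineage of gut Firmicutes, was the most abundant remnant of the Clostridia. It took 1.53%, 1.59%, 0.226%, 0.334%, 1.26% and 0.736% of counts in LD24/0. Shares in LD12/12 were 2.75%, 5.32%, 2.11%, 1.69%, 2.35% and 6.66%. The groups did not overlap, with means of 0.946% ± 0.599 in LD24/0 and 3.48% ± 2.02 in LD12/12 (SD, n = 6 each). Even so, the log2 fold change of -1.88 ± 0.87 (SE) did not pass over all genera (edgeR unadjusted p = 0.0373, edgeR adjusted p = 0.164). The group was spread over 94 variants, many seen in a few libraries only. Its most abundant variant, for example, took 1.74% and 3.61% in LD12/12 replicates 2 and 6 and at most 0.0294% in every other library. Of its 18 variants tested, 3 fell in LD24/0 and 0 rose, beside 16.8% of all 322 variants called. One of these 3 was at 0 in all LD24/0 libraries and at 0.0472% to 0.220% in 5 of 6 LD12/12 libraries.

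Desulfovibrio, a sulfate reducer that makes hydrogen sulfide from hydrogen and sulfate, took 0.0642%, 0.0558%, 0.348%, 0.986%, 0.251% and 0.273% of counts in LD24/0. In LD12/12 it took 0.0491%, 0.0944%, 0.0457%, 0.0565%, 0.0493% and 0.0391%. LD24/0 replicates 3 to 6 exceeded every LD12/12 library, and replicates 1 and 2 lay within the LD12/12 range. The means were 0.330% ± 0.342 in LD24/0 and 0.0557% ± 0.0198 in LD12/12 (SD, n = 6 each). The genus rose, with a log2 fold change of 2.56 ± 0.73 (edgeR adjusted p = 0.0252, ± SE). Without LD24/0 replicate 4 the value was 1.83 and the call was lost (edgeR adjusted p = 0.0954), as it was without LD12/12 replicate 1, 4 or 6 (adjusted p = 0.0515, 0.0512 and 0.0534).

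Different Desulfovibrio variants carried the rise in different libraries. A variant named Desulfovibrio sp. took 0.324% and 0.940% in LD24/0 replicates 3 and 4 and 0.0894% in replicate 6, and at most 0.00440% elsewhere. This variant rose by 8.35 ± 2.75 log2 units (± SE, edgeR adjusted p = 0.0368). The whole phylum Desulfobacterota took only 0.0662% and 0.0977% in LD24/0 replicates 3 and 4, so the authors' taxonomy places this variant outside it. By that phylum, LD24/0 replicates 1 to 4 lay within the LD12/12 range of 0.0525% to 0.122%. Replicates 5 and 6 lay above it, at 0.257% and 0.198%. A variant not named to species took 0.0595%, 0.0514%, 0.0245%, 0.0152%, 0.251% and 0.184% in LD24/0 and 0.0391% to 0.0944% in LD12/12. It was highest in LD24/0 replicates 5 and 6 and lowest in replicate 4. Its log2 fold change of 0.82 ± 0.83 did not pass (SE, edgeR adjusted p = 0.700).

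Over all genera, 12 of 158 tested passed the threshold, which is 7.59%, with 8 higher and 4 lower in LD24/0. At an unadjusted p under 0.05 there were 39. Only Bacteroides, Desulfovibrio and Pediococcus among the 12 reached a mean of 0.1% of counts in either group, and the other 9, named here after their values were seen, were counted at most 57 times in any library. The median log2 fold change over all genera was -0.40, and -0.14 with TMMwsp composition factors, which gave 14 calls with 10 higher and 4 lower. Of the genera called, the directions below were the same with those factors.

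Pediococcus, a lactic acid coccus of plant material and fermented food, took 0.0266%, 0.0191%, 0.0158%, 0.0118%, 0.00578% and 0% in LD24/0. The LD12/12 range was 0.0944% to 0.144%, with a median of 0.102%. The groups did not overlap, and the genus fell by 3.02 ± 0.79 log2 units (± SE, edgeR adjusted p = 0.0114). Lactiplantibacillus, a fermenter of plant material, had 5, 0, 0, 0, 3 and 3 counts in LD24/0 and 23 to 31 in LD12/12, and fell by 3.74 log2 units (edgeR adjusted p = 0.0101). Weissella, likewise a genus of fermented food, had 0 counts in all 6 LD24/0 libraries and 7 to 13 in each LD12/12 library. Against the floor of 3 counts over the group, it was at least 20.5-fold lower in LD24/0 (edgeR adjusted p = 0.00142). UBA1819, an uncultured genus of the Ruminococcaceae, had 0 counts in LD24/0 and 12 to 18 in each LD12/12 library, and was at least 29.0-fold lower in LD24/0 (edgeR adjusted p = 0.00862). These 4 genera were evenly present in LD12/12, whose libraries form 1 library set. With the library set as a block, over the 18 libraries of LD24/0, LD16/8 and LD12/12, the log2 fold change of Pediococcus was 0.79 and 0 of 117 genera passed in edgeR, where 17 had an unadjusted p under 0.05. The sets were formed from variants of the oral and fermented-food genera, which include Pediococcus, Lactiplantibacillus and Weissella. For these genera the block is thus not independent of what it adjusts. No set held both LD24/0 and LD12/12, so that fit links them only through LD16/8 libraries and cannot decide these calls. LD24/0 replicates 5 and 6 formed a block of their own there and add nothing to its contrast.

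Genera higher in LD24/0 were led, below Bacteroides and Desulfovibrio, by Subdoligranulum, a butyrate-associated genus of the Ruminococcaceae. It had 47, 56, 46, 57, 38 and 18 counts in LD24/0, and 0, 9, 5, 0, 0 and 0 in LD12/12, so the groups did not overlap. Its log2 fold change was 4.18 ± 1.25 (SE, edgeR adjusted p = 0.0257). With the library set as a block it was -0.12, in a fit that links the groups only through LD16/8 libraries and cannot decide this call. Agathobacter, a butyrate producer, had 21, 21, 6, 20, 0 and 0 counts in LD24/0 and 0 in LD12/12, and its mean was at least 23.4-fold higher (edgeR adjusted p = 0.0256). Such bounds, here and for the other genera at 0 in a group, set a group mean against the floor of 3 counts. They cover counting error and not the spread between libraries. Centipeda, an oral genus, had 16, 29, 11, 17, 0 and 0 counts in LD24/0 and 0 in LD12/12, and was at least 24.8-fold higher (edgeR adjusted p = 0.0257). Moraxella, a genus of mucosal surfaces, had 6, 7, 4, 7, 0 and 0 counts in LD24/0 and 0 in LD12/12, and was at least 8.23-fold higher (edgeR adjusted p = 0.00862). Agathobacter, Centipeda and Moraxella thus shared a pattern, counted in LD24/0 replicates 1 to 4 and in neither replicate 5 nor 6. Holdemanella, a gut genus of the Erysipelotrichaceae, was counted in 4 LD24/0 libraries, and Enterorhabdus, an anaerobe of the Eggerthellaceae, also in 4, with at most 19 and 7 counts and 0 in LD12/12. They were at least 16.8-fold and 6.94-fold higher (edgeR adjusted p = 0.0257 and 0.0491). The call of Enterorhabdus was kept under 3 of 19 alternatives. Without LD12/12 replicate 1, 4 or 6, 6 genera passed each time, 2 higher, namely Bacteroides and Moraxella, and the 4 lower.

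**Figure D4:**
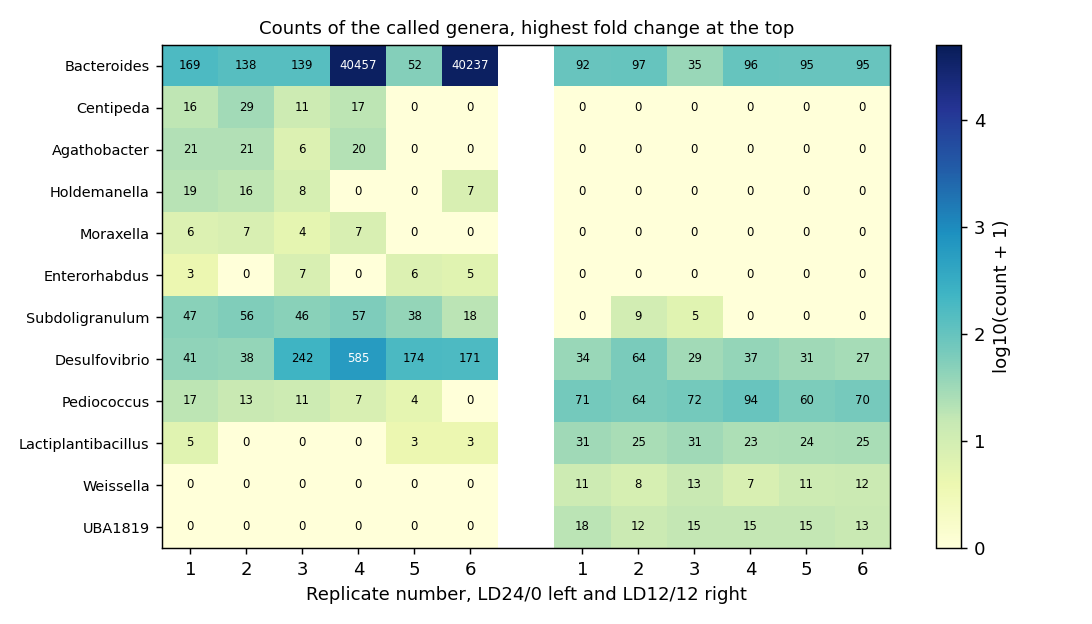
Counts of the 12 genera that passed the test in each library, with LD24/0 replicates 1 to 6 on the left and LD12/12 replicates 1 to 6 on the right, coloured by log10(count + 1) and ordered by fold change with the highest at the top. Centipeda, Agathobacter and Moraxella are counted in LD24/0 replicates 1 to 4 alone, and Weissella and UBA1819 in LD12/12 alone.

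At the level of sequence variants, 54 of 322 tested passed, 21 higher and 33 lower in LD24/0. Of the 33 lower, 32 were at 0 in LD24/0 replicates 5 and 6, and of the 21 higher, 17 were. Most calls were of variants absent from a whole group. Of the 54, 29 were at 0 in all LD24/0 libraries and 18 at 0 in all LD12/12 libraries. For those 29, the 0 in LD24/0 replicates 5 and 6 follows from this and is not particular to these 2 libraries. The share of all 322 tested variants at 0 in replicates 5 and 6 is not given here. In the oral and fermented-food genera, 17 of 59 tested variants passed (28.8%), beside 16.8% of all 322, and this difference was not tested. Called variants of the same genus could go in opposite directions. Corynebacterium, a skin and environmental genus singled out after its values were seen, had a variant at 0.253% to 0.303% in LD24/0 replicates 1 to 4 and at 0 in all other libraries (log2 fold change 9.94 ± 2.45, SE, edgeR adjusted p = 0.0123). Another Corynebacterium variant was at 0.0679% to 0.117% in LD12/12 and at 0 in LD24/0, and fell (edgeR adjusted p = 0.0196). The genus as a whole took 0.0144% to 0.568% of counts in LD24/0, with a median of 0.494%. In LD12/12 it took 0.156% to 0.226%, with a median of 0.184%. Its log2 fold change of 0.94 ± 0.62 did not pass (SE, edgeR adjusted p = 0.362). Without LD24/0 replicates 5 and 6, 26 variants passed, 18 higher and 8 lower, and 23 of 156 genera, 14 higher and 9 lower.

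The Clostridia listed as short-chain fatty acid producers took 1.45% ± 0.628 in LD24/0 and 4.12% ± 2.06 in LD12/12 (SD, n = 6 each). The list goes by taxon name, and these counts do not measure fatty acids. Every LD24/0 library, at 0.626% to 2.30%, lay below the lowest LD12/12 library, at 2.36%. Most of this sum is the uncultured vadinBB60 group described above, at 0.946% and 3.48%, so the gap between the groups largely repeats that result. Of the 25 members tested, 2 rose, namely Subdoligranulum and Agathobacter, 0 fell and 23 did not pass, with a median log2 fold change of -0.22. Over all 158 genera tested, 7.59% passed. Among them Faecalibacterium, a butyrate producer singled out after its values were seen, took 0.0345% to 0.117% in LD24/0 and 0.132% to 0.170% in LD12/12, without overlap and without passing (log2 fold change -1.21 ± 0.58, SE, edgeR adjusted p = 0.186). Of 23 Lachnospiraceae genera 1 rose and 0 fell, with a median of -0.87, and of 9 Ruminococcaceae genera 1 rose and 1 fell, with a median of -0.97. Of 4 Oscillospiraceae genera 0 passed by edgeR, DESeq2 or limma, 1 had an unadjusted p under 0.05, and the median was 0.33.

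Lactobacilli and bifidobacteria, listed by name as acid-forming residents of the mouse gut, took 2.02%, 1.45%, 1.61%, 1.59%, 0.247% and 0.375% in LD24/0 and 1.84% to 2.39% in LD12/12. LD24/0 replicates 5 and 6 were lowest, and 5 of 6 LD24/0 libraries lay below the lowest LD12/12 library. Limosilactobacillus led the list at 0.407% ± 0.316 in LD24/0 and 1.07% ± 0.0801 in LD12/12 (SD, n = 6 each), with 0% and 0.0207% in LD24/0 replicates 5 and 6. Its log2 fold change of -1.39 ± 0.70 did not pass (SE, edgeR adjusted p = 0.205). A pair of its variants, at 0 in all LD24/0 libraries and at 0.0985% to 0.136% and 0.0536% to 0.0978% in LD12/12, fell (edgeR adjusted p = 0.00431 and 0.00548). On chow, Limosilactobacillus was at 0 in all LD24/0 and LD12/12 cecal libraries. In the colon with antibiotics it took at most 0.0167% under these light cycles. Bifidobacterium was among the 31 genera counted in neither LD24/0 replicate 5 nor 6. Whether the counts of this list come from resident gut bacteria was not tested. Ligilactobacillus, the main lactobacillus of the chow-fed cecum, had means of 0.291% in LD24/0 and 0.449% in LD12/12, and Streptococcus 0.264% and 0.417%, and neither passed. Of the 5 members tested 0 passed by edgeR and 0 had an unadjusted p under 0.05, 0 passed by DESeq2 and 1 by limma, with a median of -0.62.

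The remaining lists were read beside the 12 of all 158 genera tested that passed, or 7.59%. Of 10 Bacteroidales genera tested, 1 rose, which is Bacteroides, and the median was 0.09. Among the sulfate and sulfite reducers 1 of 2 rose, which is Desulfovibrio, with a median of 1.44. Of 3 mucus-layer genera and 2 Erysipelotrichales, 0 passed by edgeR or DESeq2 and 0 had an unadjusted p under 0.05, while limma called 1 mucus-layer genus lower. Their medians were -0.89 and 0.59, and these lists took at most 0.136% and 0.0388% of counts in any library. Of 15 oral and fermented-food genera, 3 fell and 0 rose, with a median of -0.65. These are Pediococcus, Lactiplantibacillus and Weissella. Of 12 reagent and environmental genera and plastids 0 passed by edgeR, DESeq2 or limma, 1 had an unadjusted p under 0.05, and the median was -0.66. Neisseria and Haemophilus, oral genera and the most abundant of the first list, were both at 0 in LD24/0 replicates 5 and 6. Neisseria was at 0.383% to 0.507% in the other 4 LD24/0 libraries and at 0.293% to 0.405% in LD12/12, and Haemophilus at 0.214% to 0.281% and at 0.342% to 0.472%.

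As a whole community, LD24/0 and LD12/12 were compared on 3 measures. The Shannon index, which weighs richness and evenness, was 2.67, 2.65, 2.49, 1.74, 2.30 and 1.54 in LD24/0 and 2.37, 2.51, 2.39, 2.59, 2.77 and 2.77 in LD12/12. LD24/0 replicates 4 and 6, with the Bacteroides variant, were lowest, and the groups overlapped. The means were 2.23 ± 0.482 in LD24/0 and 2.57 ± 0.175 in LD12/12 (SD, n = 6 each), a difference of -0.335 (exact two-sided permutation p = 0.160, adjusted p = 0.267). The number of variants expected at 39157 counts was 232, 232, 191, 277, 124 and 113 in LD24/0 and 222 to 273 in LD12/12. LD24/0 replicates 5 and 6, which lack the oral and food genera, were lowest. The means were 195 ± 65.2 in LD24/0 and 243 ± 19.2 in LD12/12, a difference of -48.5 (exact two-sided permutation p = 0.132, adjusted p = 0.267). Without LD24/0 replicates 5 and 6 that difference was -10.3.

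The split into LD24/0 and LD12/12 explained 21.7% of the squared Bray-Curtis distances, a measure from 0 for identical to 1 for unshared communities (exact permutation p = 0.0108, 0.0541 after adjustment over the 5 tests). The smallest p that 6 against 6 libraries allow is 0.00216. Leaving out any 1 of the 6 LD12/12 libraries gave an unadjusted exact permutation p of 0.186 to 0.193. Leaving out any 1 of the 6 LD24/0 libraries gave 0.00216 to 0.0152. LD24/0 replicates 4 and 6 were 0.133 apart, but 0.671 to 0.785 from the other 4 LD24/0 libraries and 0.691 to 0.778 from LD12/12. The other 4 LD24/0 libraries were 0.103 to 0.211 from the LD12/12 libraries, which were 0.0534 to 0.213 from each other (medians 0.160 and 0.171). All 6 LD24/0 libraries were a median of 0.671 from each other. Unequal spread also moves this permutation test, so it cannot tell a shift of the community apart from a difference in spread.

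**Figure D5:**
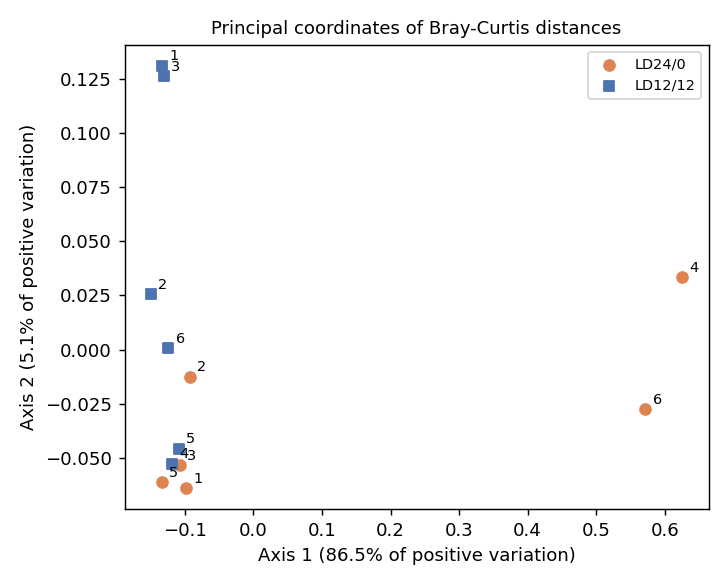
Principal coordinates of Bray-Curtis distances between the 12 libraries, with circles for LD24/0, squares for LD12/12 and replicate numbers beside them. Axis 1 holds 86.5% of the positive variation and separates LD24/0 replicates 4 and 6 from the other 10 libraries.

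The same contrast in other samples of the study shows how far these differences extend. On chow, the cecum of LD24/0 and LD12/12 mice held Bacteroides at 0.235% ± 0.223 and 0.281% ± 0.114 (SD, n = 6 each), a log2 fold change of -0.26 ± 1.10 (SE). The difference of the 2 contrasts, antibiotics minus chow, was 7.70 ± 1.74 for Bacteroides (SE, edgeR adjusted p = 0.00542), 1 of 20 genera of 255 that passed this interaction, or 7.84%. For Desulfovibrio it was 2.45 ± 1.09 and did not pass (SE, edgeR adjusted p = 0.179). Desulfovibrio on chow was far more abundant, at 15.1% ± 15.3 in LD24/0 and 14.0% ± 15.0 in LD12/12 (SD, n = 6 each).

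In the colon with antibiotics, Bacteroides took 13.9% ± 22.0 in LD24/0 and 0.128% ± 0.0396 in LD12/12 (SD, n = 6 each), so it rose there too, by 6.76 ± 1.97 log2 units (± SE, edgeR adjusted p = 0.0239). The leading variant exceeded 1% there in 2 of 6 LD24/0 libraries, as in the cecum. Whether the cecal and colonic libraries come from the same mice is not given in the labels. The difference between sites was 0.67 ± 2.18 for Bacteroides, 0.05 ± 1.51 for Enterococcus and -0.02 ± 1.20 for the vadinBB60 group, none of which passed (SE, edgeR adjusted p = 1.00 for each). Their colonic log2 fold changes of 2.22 ± 1.12 for Enterococcus and -1.86 ± 0.85 for the vadinBB60 group were of nearly the cecal size, although neither passed there (SE, edgeR adjusted p = 0.238 and 0.170). Enterococcus took 22.5% ± 13.3 in LD24/0 and 4.84% ± 8.88 in LD12/12 in the colon (SD, n = 6 each). Of 215 genera, 15 passed the interaction of light with site, or 6.98%. Among them were Weissella, with a difference of -7.10, and UBA1819, with -12.70. These were at 0 in all LD24/0 libraries of the cecum, while in the colon Weissella took 0.291% in LD24/0 and 0.173% in LD12/12, and UBA1819 took 0.0410% in LD24/0 and was near 0 in LD12/12.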

How the data were processed

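The authors deposited whole-number read counts for each 16S sequence variant, with unequal totals and thus no normalisation, and the authors' taxonomy table names each variant. A stool kit for extraction and PacBio SMRTbell libraries were used, per the labels. No source used here names the primers, the denoiser or the reference database. Counts were summed by genus, and names such as unclassified Muribaculaceae stand for variants without a genus. All light cycles of the cecum with antibiotics (30 libraries) entered 1 edgeR 4.0.16 quasi-likelihood fit (R 4.3.3), robust, with light cycle as a factor, the total count of each library as its size and no scaling for composition. Genera needed 3 counts in 5 libraries, and variants 10 counts in 4. Benjamini-Hochberg adjustment ran over everything tested, and adjusted p under 0.05 passed. The standard error is the absolute log2 fold change over the square root of F. Interactions were fitted over all cecal or all antibiotics libraries. Single values were tested by exact permutation of the group labels. The scripts were tested on simulated data with known 8-fold changes. They recovered 46.1% of the changed genera and 5.36% of the changed variants. Of the calls, 4.65% of genera and 9.09% of variants had not been changed. Changes of that size can thus go undetected, above all in variants. limma 3.58.1 and DESeq2 1.42.0 served as alternatives, and Python 3.11.15 (pandas 2.3.3, numpy 2.4.6) was used for the rest.

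A read count without molecular identifiers gives depth for counting error only. Replicates are samples of 1 group by their labels, and p values measure the spread between them. Library sets were formed from the data, from variants of the oral and fermented-food genera with 5 counts or more (average linkage, 1 minus Jaccard, height 0.6). The groups, lists and alternatives were chosen with earlier results of these data known. Genera were named if called with a mean of 0.1% in either group, among the 12 most abundant, list members of 1% or more, or past an interaction with a mean of 0.1%. Named variants were the 10 most abundant called ones and the 2 leading ones of each genus above 5%. The alternatives covered the composition factor, the filters, the tool, the libraries of the fit, the replicate number as a block, families, and the distance measure.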

Additional observations from a re-analysis of the deposited data

Results flagged for a closer look

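Among 62 groups of 6 libraries checked for a value far from the others, 4 stood out, and chance alone marks about 1 in 20. Desulfovibrio was far above the other LD24/0 libraries in LD24/0 replicate 4, at 0.986% beside 0.0558% to 0.348%. In LD12/12, it was high in replicate 2, at 0.0944% beside 0.0391% to 0.0565%. Enterococcus was high in LD12/12 replicate 5, at 2.15% beside 0.0487% to 0.146%. Bacteroides was low in LD12/12 replicate 3, at 0.0551% beside 0.133% to 0.151%. The Bacteroides shares of LD24/0 replicates 4 and 6 were not marked, since the 2 lie close to each other.

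The difference between LD24/0 and LD12/12 itself differed between antibiotics and chow in the cecum for Bacteroides by 7.70 on the log2 scale (edgeR adjusted p = 0.00542). It differed the other way for genera of the mouth and the environment, by -8.08 for Lysinibacillus, -7.14 for Rothia, -7.28 for Neisseria, -7.19 for Haemophilus and -6.28 for Actinomyces (edgeR adjusted p from 0.00542 to 0.0136). On chow, these 5 were at 0 in all 6 LD12/12 libraries and took at most 0.0489% in any LD24/0 library. Between cecum and colon with antibiotics, the difference itself differed by 5.01 for Rothia, -5.47 for Actinomyces and -6.42 for Fusobacterium (edgeR adjusted p = 0.0221, 0.00434 and 0.00198). In the colon these 3 took at most 0.0723% in any LD24/0 or LD12/12 library, and in the cecum all 3 were at 0 in LD24/0 replicates 5 and 6. The part of the library sets in these differences was not tested.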

How the results depend on the processing

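Beside 12 genera called, the fit of the 12 libraries alone called 5 (1 higher, 4 lower), centred log-ratios with limma 23 (9 higher, 14 lower), and families in place of genera 1, Bacteroidaceae. Among the alternatives added after seeing the data, leaving out LD24/0 replicates 5 and 6 gave 23 genera and 26 variants, and the library set as a block 0 of 117 genera and 1 of 206 variants, where Pediococcus was 0.79 and Subdoligranulum -0.12, both reversed. That block fit links LD24/0 and LD12/12 only through LD16/8 libraries and cannot decide these calls. Its sets were also formed from variants of genera that include Pediococcus. With the replicate number as a block, edgeR called 0 of 102 genera (13 at an unadjusted p under 0.05) and 0 of 163 variants (48), and Bray-Curtis kept 21.7% at an exact permutation p of 0.0625. Same-numbered libraries correlated at -0.150 to 0.133 and none correlated best with its own number. These values show no pairing by number, though they cannot exclude one. Leaving out 1 library gave 6 to 13 genera (6 without LD12/12 replicate 1, 4 or 6), 34 to 49 variants (34 or 35 without LD24/0 replicate 2, 3 or 4), a difference of -64.9 to -32.2 observed variants (-64.9 without LD24/0 replicate 4, unadjusted exact permutation p = 0.0173) and 14.9% to 28.6% of Bray-Curtis variation. The diet interaction called 8 genera with no filter and 20 with it. Bacteroides lost its call under the replicate block (2.32), centred log-ratios (3.98) and the library set (7.53). Depth limits what can be said of genera with few counts per library. The cause of these shifts was not tested. Over the named or called genera and their alternatives, 509 values kept their direction and side of the threshold, 54 lost their call, 9 gained one and 2 reversed. The interactions were not fitted with the replicate block.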
